A study of Mus musculus with 45 samples.

Results

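The wave-front of RNA polymerase II (RNAPII) was compared between WT/slow and WT/WT mouse embryonic stem cells (ESCs) 5 min after release from a transcription block. Each of the 2 genotypes was measured in 3 biological replicates, numbered 1 to 3 in the sample labels. The measurement is a boundary, the distance in bases from the start of a transcript to the end of the wave of nascent RNA. Transcripts were included when they spanned at least 20 kb and had a boundary in all 6 samples, which held for 26705 of the 35031 transcripts of that length and of the 122968 in each table. They belonged to 8744 genes and 23836 start sites, so isoforms of 1 gene often shared a start and were not independent. By length, 5499 spanned 20 to 30 kb, 9405 spanned 30 to 60 kb, 4985 spanned 60 to 100 kb, 3969 spanned 100 to 200 kb and 2847 spanned 200 kb or more.

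RNAPII pauses shortly after initiation and is released into productive elongation by the kinase P-TEFb. DRB (5,6-dichlorobenzimidazole 1-beta-D-ribofuranoside) blocks that release, and its removal lets a synchronous wave of polymerases enter gene bodies. Nascent RNA labelled with 4-thiouridine (4sU) then marks how far the wave has travelled, an approach called 4sU-DRB-seq. ESCs transcribe the pluripotency network and many housekeeping genes, and long introns make up most of the distance that a polymerase covers in a long gene.

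WT/WT cells carry 2 unmutated copies of Polr2a, the gene of the largest RNAPII subunit. WT/slow cells are heterozygous for R749H, a knock-in at the endogenous locus named for a slow polymerase, so these cells hold both forms of the enzyme. Cells of all samples were grown in 2i medium and kept in DRB for 4 h by the labels and the methods, while the study's results text gives a shorter block. The labels do not say how many clones each genotype stands for, so a difference between clones and one between genotypes cannot be told apart. The codon that the slow allele changes is shown with its flanking exon sequence because it is the change that names the slow allele. The allele was made by gene targeting, and the selection cassette was then excised. The study sequenced the region around the mutation and reported no rearrangement or further mutation there relative to the parental cells. Other traces of the targeting, if any, cannot be told apart from the mutation. It lies in exon 14 of 29 of Polr2a, at chr11:69743326-69743388 on the minus strand of GRCm38, and the capitals mark the codon that R749H changes, an arginine codon in the reference.
Polr2a codon of R749H: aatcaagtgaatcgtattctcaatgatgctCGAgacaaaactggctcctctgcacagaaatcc

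The files hold no read counts, so the depth of each sample is unknown and the spread of the 3 replicates is the only error. Of the transcripts of at least 20 kb, 83.5 to 86.8% had a boundary in each of the 6 samples. Boundaries of the 26705 transcripts ran from 0.2 to 58.2 kb in steps of 100 bases. Of the 160230 boundaries, 34282 (21.4%) stood at exactly 2.5 kb, whereas 2.6 kb, the value next in frequency, held 0.487%. The sources used here do not say whether 2.5 kb is a measured position, a lower limit or a failed call of the software, so boundaries at 2.5 kb were counted apart below and a difference against 2.5 kb has no certain size. The cell type could be checked by calls only, because a boundary is a position and not a level. Of 12 pluripotency markers, 6 (Zfp42, Esrrb, Tfcp2l1, Tbx3, Fgf4 and Tdgf1) had a call in all 6 samples at any length, and Pou5f1, Sox2, Dppa3 and Dppa5a had none. Calls in all 6 samples were also found for 4 of 10 neural markers, 4 of 7 of primitive endoderm, 1 of 5 of trophoblast and 0 of 7 of fibroblasts.

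Replicate 2 stood apart in both genotypes, with the wave farther along than in replicates 1 and 3. The median boundary was 7.6, 15.6 and 9.0 kb in the WT/WT replicates 1 to 3 and 7.7, 12.3 and 8.9 kb in the WT/slow replicates 1 to 3. The groups overlapped throughout, and the medians of replicates 1 and 3 differed between the genotypes by 0.1 and -0.1 kb. The mean of the medians was 10.7 ± 4.27 kb in WT/WT cells and 9.63 ± 2.39 kb in WT/slow cells (SD, n = 3), a difference of -1.1 kb that was smaller than the spread between replicates (two-sided exact permutation p = 0.8; the design of 3 against 3 cannot go below 0.1). Single WT/slow medians lay between 7.9 kb below and 4.7 kb above single WT/WT medians. The whole difference came from number 2, since without that replicate in both groups it was 0 kb. Leaving out WT/WT replicate 2 alone turned the difference to 1.33 kb.

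**Figure D1:**
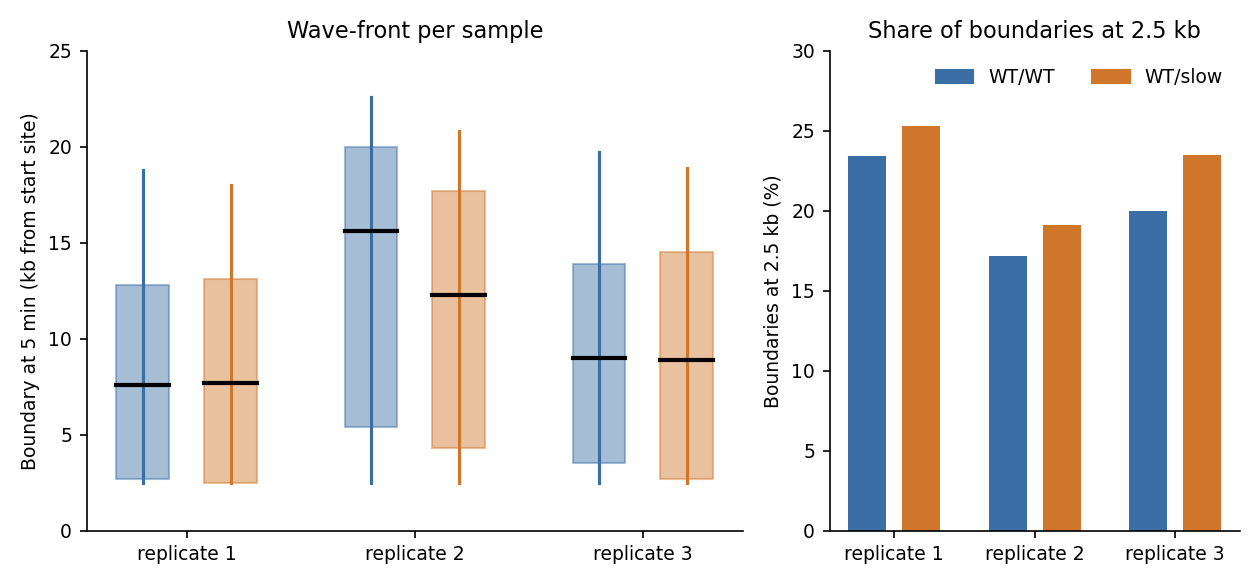
The left panel gives the boundary at 5 min in kb from the start site for each of the 6 samples over 26705 transcripts, with a black line at the median, a box from the 25th to the 75th percentile and a vertical line from the 10th to the 90th. The right panel gives the percent of boundaries at 2.5 kb. Replicate 2 has the highest median of each genotype, 15.6 kb in WT/WT cells and 12.3 kb in WT/slow cells, and the share at 2.5 kb is higher in WT/slow cells within each replicate number.

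The far end of the wave differed little more than its middle. The 90th percentile of the boundaries was 18.8, 22.6 and 19.7 kb in WT/WT cells and 18, 20.8 and 18.9 kb in WT/slow cells. It was lower in WT/slow cells within each number, by 0.8, 1.8 and 0.8 kb, yet the groups overlapped and the mean difference of -1.13 kb did not pass the test (exact permutation test, two-sided p = 0.6). The 25th percentile was 2.7, 5.4 and 3.5 kb against 2.5, 4.3 and 2.7 kb (difference -0.7 kb, exact permutation p = 0.6).

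Longer transcripts showed the larger differences, but none passed the test. In transcripts of 20 to 30 kb the medians were 6.5, 13.4 and 8.5 kb in WT/WT cells and 6.7, 11.6 and 9.0 kb in WT/slow cells (difference -0.367 kb, exact permutation p = 1.0). In transcripts of 60 to 100 kb they were 8.4, 17.3 and 9.8 kb against 8.0, 13.7 and 9.3 kb, a difference of -1.5 kb (exact permutation p = 0.6). In transcripts of 200 kb or more they were 7.2, 10.7 and 6.7 kb against 7.1, 8.0 and 5.1 kb, a difference of -1.47 kb (exact permutation p = 0.5). The WT/slow median lay below the WT/WT median of the same number in 3 of 3 pairs in the 60 to 100 kb class and in the class of 200 kb or more. Pairs alone cannot pass a test here, as the smallest p of 3 signed differences is 0.25. The classes of 30 to 60 kb and of 100 to 200 kb differed by -0.633 and -1.77 kb (exact permutation p = 0.9 and 0.6). After adjustment over the 5 classes each p was 1.0. Without replicate 2 of both groups the difference was 0.35 kb at 20 to 30 kb, 0.6 kb at 30 to 60 kb, -0.45 kb at 60 to 100 kb, -0.65 kb at 100 to 200 kb and -0.85 kb at 200 kb or more.

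**Figure D2:**
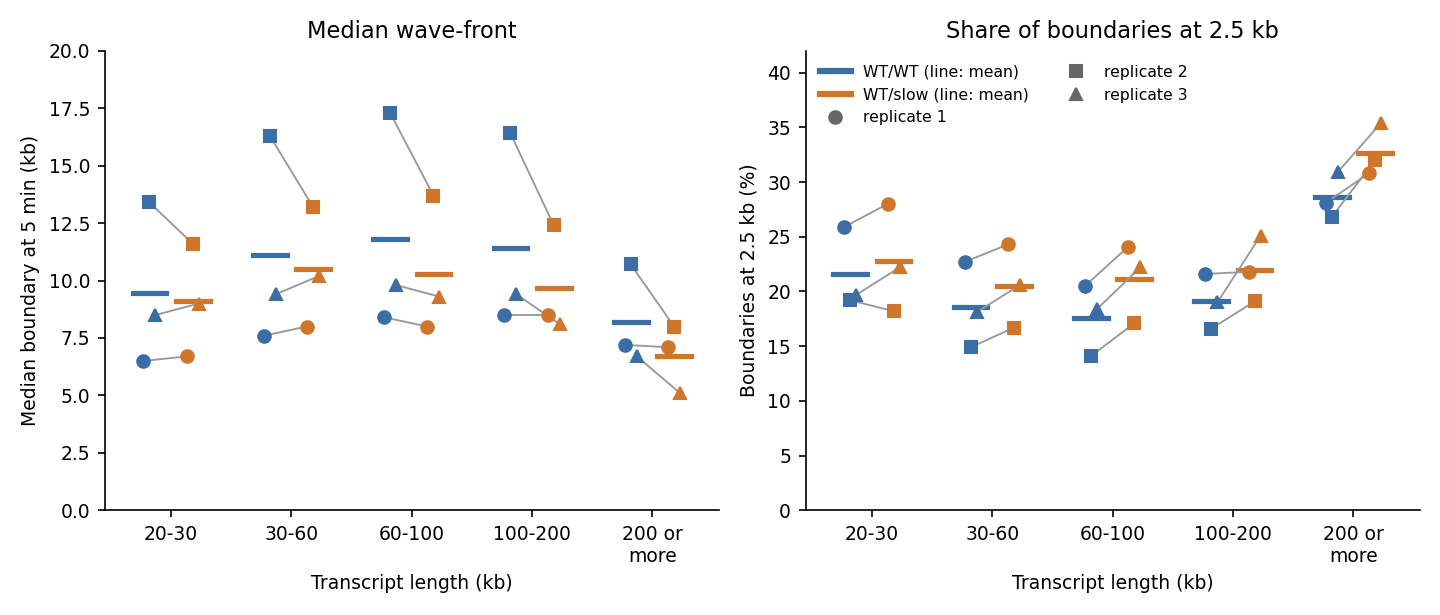
The left panel plots the median boundary in kb and the right panel the percent of boundaries at 2.5 kb for each sample by transcript length, with grey lines joining samples of the same replicate number and coloured bars at the mean of 3 samples. Medians of the genotypes overlap in every class, and in transcripts of 200 kb or more each pair has more boundaries at 2.5 kb in WT/slow than in WT/WT cells.

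Boundaries at 2.5 kb were more frequent in WT/slow cells within each replicate number, by a margin smaller than the spread between replicates. Their share was 23.4, 17.2 and 20% in WT/WT replicates 1 to 3, a mean of 20.2% ± 3.11 (SD, n = 3). In WT/slow cells it was 25.3, 19.1 and 23.5%, a mean of 22.6% ± 3.21 (SD, n = 3). The difference was 2.45 percentage points (exact permutation test, two-sided p = 0.4; 0.942 without WT/WT replicate 2, 4.05 without WT/WT replicate 1, 1.1 without WT/slow replicate 1 and 4.22 without WT/slow replicate 2), and within the numbers it was 1.96, 1.92 and 3.47 points (exact sign-flip p = 0.25, the smallest possible). The margin was 4.13 points in transcripts of 200 kb or more, where the shares were 28.1, 26.8 and 30.9% against 30.8, 32.0 and 35.4% (exact permutation p = 0.2). In the 20 to 30 kb class it was 1.24 points, with replicate 2 lower in WT/slow cells by 0.982 points.

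The groups separated on this share in transcripts whose first intron spans 30 kb or more. There it was 25, 21.5 and 23.4% in WT/WT and 26.5, 25.3 and 30% in WT/slow cells, so that each WT/slow sample lay above each WT/WT sample. The difference of 4.0 points reached the smallest p the design allows (exact permutation test, p = 0.1), in 1 of 46 such tests of medians and shares. Transcripts with a first intron under 2.5 kb differed by 1.84 points (exact permutation p = 0.6). Transcripts were also split by the GC content of their first 10 kb. The lowest quartile, of 31.4 to 41.5% GC, differed by 0.938 points and the highest, of 47.4 to 60% GC, by 3.55 points (exact permutation p = 0.8 and 0.3). Long non-coding transcripts, here with processed transcripts included, also of coding genes such as Rnf43, had a higher share than protein-coding ones in each sample. It was 26.5 to 32.1% against 15.5 to 21.9% in WT/WT and 28.9 to 35.7% against 17.4 to 23.4% in WT/slow cells. The genotypes differed by 3.22 points in the non-coding and 2.32 points in the protein-coding set (exact permutation p = 0.3 and 0.4).

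Removing the boundaries at 2.5 kb brought the group means closer but not each pair of samples. Within replicates 1 and 3 the difference went from 0.1 and -0.1 kb to 0.5 and 0.7 kb. In the 12328 transcripts with all 6 boundaries above 2.5 kb, the medians were 10.8, 18.7 and 11.9 kb in WT/WT cells and 11.3, 16.1 and 12.6 kb in WT/slow cells. The WT/slow median was thus higher in replicates 1 and 3 and lower in replicate 2, with a mean difference of -0.467 kb (exact permutation p = 0.9). At 20 to 30 kb the difference in such transcripts was 0.133 kb, opposite in sign to that over all boundaries. Of the 26705 transcripts, 268 from 186 genes were at 2.5 kb in 3 WT/slow samples and in 0 WT/WT samples, and 210 from 160 genes showed the reverse. Only 737 (2.76%) were at 2.5 kb in all 6 samples, and 12560 (47.0%) were there in none.

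Most wave-fronts lay in introns in both genotypes. Over transcripts with GENCODE coordinates and at least 2 exons, the boundary fell in intron 1 in 54.5% ± 5.82 of WT/WT and 55.4% ± 4.11 of WT/slow calls (SD, n = 3; exact permutation p = 0.8). It fell in an exon in 2.54% ± 0.26 and 2.27% ± 0.208 of the calls (SD, n = 3; exact permutation p = 0.3).

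Single transcripts varied more between replicates than between genotypes. The median SD over 3 replicates was 4.97 kb in WT/WT cells and 4.13 kb in WT/slow cells, the median size of the difference between group means was 2.73 kb, and the difference exceeded the pooled SD in 25.8% of transcripts. By the means, 53.4% of transcripts were lower in WT/slow cells and 43.6% higher. Within replicate 2, 63.5% were lower and 25.1% higher, whereas in replicate 1 it was 44.1% and 43.2% and in replicate 3 it was 43.3% and 45.7%. Across transcripts, Spearman's rho was 0.329 to 0.528 between WT/slow replicates and 0.381 to 0.476 between WT/WT replicates. The highest value, 0.677, linked replicate 2 of WT/WT with replicate 2 of WT/slow cells, while many transcripts share a gene and the value at 2.5 kb. Over the 12328 transcripts with all 6 boundaries above 2.5 kb, rho was 0.149 to 0.385 between WT/slow replicates, 0.169 to 0.267 between WT/WT replicates and 0.572 for that pair.

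In 1647 transcripts (6.17%) from 943 genes, each WT/slow boundary lay below each WT/WT boundary, and in 752 (2.82%) from 514 genes each lay above. Over all 33376 transcripts with 6 boundaries, of which the long ones are a part, the shares were 5.87% and 2.99%. In the 6671 shorter transcripts alone they were 4.66% and 3.69%. This split depended on the position of whole samples. When samples were scaled to a common median, 1151 transcripts (4.31%) lay below and 1700 (6.37%) above, and 773 and 518 of them were the same transcripts as before scaling. By length, the share below was 5.24% at 20 to 30 kb and 8.22% at 200 kb or more, and the share above 3.16% and 2.21%. The median difference in these sets was -8.8 kb (range -35.2 to -0.1) for those below and 7.0 kb (range 0.2 to 40.2) for those above. Some boundary was at or under 2.5 kb in 930 of the 1647 and in 493 of the 752.

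Limma with Benjamini-Hochberg adjustment called 8 of the 25962 transcripts that it could test, from 6 genes (0.0308%), with 3 lower and 5 higher in WT/slow cells. Over the 31436 transcripts of any length in that fit the calls were the same 8 (0.0254%; 0.00954% lower and 0.0159% higher). With the replicate number as a block limma called 0 of them, with 1775 at an unadjusted p under 0.05 and a smallest adjusted p of 0.589. It also called 0 in each fit without 1 of the 6 samples (smallest adjusted p 0.0784 to 0.225), so no call held when any 1 library was omitted. Without the block, 1416 transcripts (5.45%) were at an unadjusted p under 0.05, 998 lower and 418 higher, and after scaling to a common median 658 were lower and 867 higher. In simulated data of this design, with samples that were not paired, limma without the block recovered 0 of 200 transcripts changed by 10 kb and 28 of 200 (14%) changed by 20 kb. Differences of several kb in a single transcript were therefore not detectable in that fit, and the fit with the block was not simulated.

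Each of the 6 called genes had at least 1 boundary at 2.5 kb, so the size of each difference rests on what that value stands for. The values in every sample are given here in the order of replicates 1 to 3. Rnf43, a ubiquitin ligase that removes Wnt receptors from the cell surface, had its boundary at 25.1, 27.6 and 26.4 kb in WT/WT cells and at 2.5, 2.5 and 2.5 kb in WT/slow cells. The groups lay far apart, with a difference of -23.9 kb (SE 1.22, adjusted p = 0.0346, limma). The called transcript (ENSMUST00000121782, chr11:87664549-87734540, plus strand of GRCm38, 69.99 kb) has its first intron at both positions. Of the 6 Rnf43 transcripts measured, 4 did not overlap and lay below in WT/slow cells, while ENSMUST00000040089, which starts about in the middle of the gene, was at 2.5 kb in the 3 WT/WT samples and at 2.5, 10.9 and 7.5 kb in WT/slow cells.

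Wnt7b encodes a secreted Wnt ligand. Its boundary was 26.3, 29.4 and 28.4 kb in WT/WT cells and 4.1, 2.5 and 3.2 kb in WT/slow cells (difference -24.8 kb, SE 1.38, adjusted p = 0.0346, limma), for ENSMUST00000109424 (chr15:85535439-85578070, minus strand, 42.63 kb). The other 2 of the 3 Wnt7b transcripts overlapped between the groups, with differences of -12.9 and -6.0 kb. Usp40, a ubiquitin-specific protease, had 22.5, 22.7 and 24.6 kb in WT/WT cells and 2.5 kb in each WT/slow sample (difference -20.8 kb, SE 1.2, adjusted p = 0.0346, limma). This Usp40 transcript (ENSMUST00000189409, chr1:87945119-87975898, minus strand) is annotated as a target of nonsense-mediated decay and starts inside the gene. The full-length Usp40 transcript, ENSMUST00000040783, was at 8.5, 14.7 and 8.5 kb against 8.8, 2.5 and 2.5 kb, and its groups overlapped.

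Among the calls higher in WT/slow cells, Pcdhga9 had the largest difference. This gene of the gamma protocadherin cluster encodes an adhesion molecule of neurons and shares its downstream exons with neighbouring cluster genes, so reads there cannot be assigned to it alone. Its boundary was 2.5 kb in each WT/WT sample and 41.7, 45.7 and 40.6 kb in WT/slow cells (difference 40.2 kb, SE 1.71, adjusted p = 0.0346, limma). The mean WT/slow front lay in intron 1, upstream of the shared exons. Whether the reads up to that front came from Pcdhga9 alone was not tested. Arhgef10l, a guanine nucleotide exchange factor, gave 3.6, 2.5 and 5.1 kb in WT/WT cells and 32.1, 31.8 and 35.8 kb in WT/slow cells (difference 29.5 kb, SE 1.67, adjusted p = 0.0346, limma). Its 3 called transcripts begin within a few bases of each other, end at the same place and carried identical values (for ENSMUST00000097820, chr4:140514485-140648756, minus strand, 134.3 kb). Of the 9 Arhgef10l transcripts measured, 4 lay above without overlap. The fourth, ENSMUST00000143614, was at 4.1, 2.5 and 5.6 kb against 53.4, 32.4 and 6.9 kb (adjusted p = 0.978, limma). The longest Arhgef10l transcript, ENSMUST00000069623, starts farther upstream and was at 2.7, 2.5 and 3.6 kb in WT/WT cells and at 2.5 kb in each WT/slow sample.

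Lrp1, an endocytic receptor of the low-density lipoprotein receptor family, was called in a retained-intron transcript (ENSMUST00000125480, chr10:127587627-127621148, minus strand, 33.52 kb). Its boundary was 2.5, 2.5 and 3.5 kb in WT/WT cells and 24.2, 22.1 and 23.0 kb in WT/slow cells (difference 20.3 kb, SE 1.21, adjusted p = 0.036, limma). The coding Lrp1 transcript with the same start, ENSMUST00000049149, had overlapping groups (adjusted p = 0.978, limma), with 17.9, 44.3 and 19.4 kb in WT/WT cells and 24.0, 23.8 and 2.5 kb in WT/slow cells. Another coding transcript, ENSMUST00000121829, was at 2.5, 2.5 and 3.6 kb against 2.5, 21.9 and 23.2 kb, and one more, ENSMUST00000118455, at 2.5, 2.5 and 3.6 kb against 2.5 kb in each WT/slow sample. A shared start thus did not give a shared boundary.

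Where all 6 boundaries lay above 2.5 kb and the groups did not overlap, 717 transcripts (5.82% of 12328) were lower and 259 (2.1%) higher in WT/slow cells, and limma fitted to these transcripts alone called 0 (466 at an unadjusted p under 0.05, smallest adjusted p 0.203). In the fit over all transcripts, the 8 lower and the 8 higher genes of smallest p had adjusted p from 0.0815 to 0.119 and from 0.108 to 0.252 (limma), and none passed. Celsr1, an adhesion receptor of planar cell polarity, had 37.3, 39.9 and 37.0 kb in WT/WT cells and 6.6, 12.8 and 10.8 kb in WT/slow cells. Hivep2, a zinc finger transcription factor, had 33.3, 35.4 and 38.8 kb against 8.4, 10.1 and 5.6 kb. In both genes the WT/slow front was nearer to the start in every sample, by 28 and 27.8 kb on average.

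Vps53, a subunit of a complex that tethers vesicles at the Golgi, was among the tightest, with 33.3, 34.1 and 33.6 kb in WT/WT cells and 13.4, 16.2 and 16.9 kb in WT/slow cells. Its mean front lay in intron 4 in WT/WT and in intron 3 in WT/slow cells. Miga1, which acts in mitochondrial fusion, had 27.1, 27.5 and 26.8 kb against 11.7, 13.2 and 11.7 kb. The mean front lay in intron 7 of Miga1 in WT/WT and in intron 4 in WT/slow cells. Tmem33, a membrane protein of the endoplasmic reticulum, had 14.7, 14.7 and 14.2 kb against 2.6, 4.3 and 2.6 kb. The remaining genes of this set were Shld1, a subunit of the shieldin complex in DNA repair (-15.7 kb), Thrb, a thyroid hormone receptor (-20.7 kb), and AW554918 (-15.9 kb). The AW554918 transcript is annotated as a target of nonsense-mediated decay.

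In the opposite direction, H2afy2, which encodes a macroH2A histone variant, had 3.0, 4.2 and 5.9 kb in WT/WT cells and 15.1, 15.9 and 16.0 kb in WT/slow cells. Evi5, a regulator of Rab GTPases, had 9.5, 6.2 and 7.9 kb against 21.5, 27.0 and 25 kb. Adgrl2, a latrophilin adhesion receptor, had 7.2, 8.0 and 5.9 kb against 16.3, 20.5 and 19.8 kb. In all 3 genes both mean fronts lay in intron 1. Map7d2, a microtubule-associated protein, had 6.1, 7.8 and 6.3 kb against 26.3, 19.9 and 24.1 kb, and its mean fronts were in intron 1 as well. The others were the long non-coding Gm14812 (19.0 kb) and C130071C03Rik (11.5 kb), the processed transcript Gm49323 (13.3 kb) and Ccdc90b, a mitochondrial protein (9.37 kb). The plot of these transcripts shows 22 genes in which the replicates of a genotype lay together and the genotypes apart, as the choice of non-overlapping groups fixes.

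**Figure D3:**
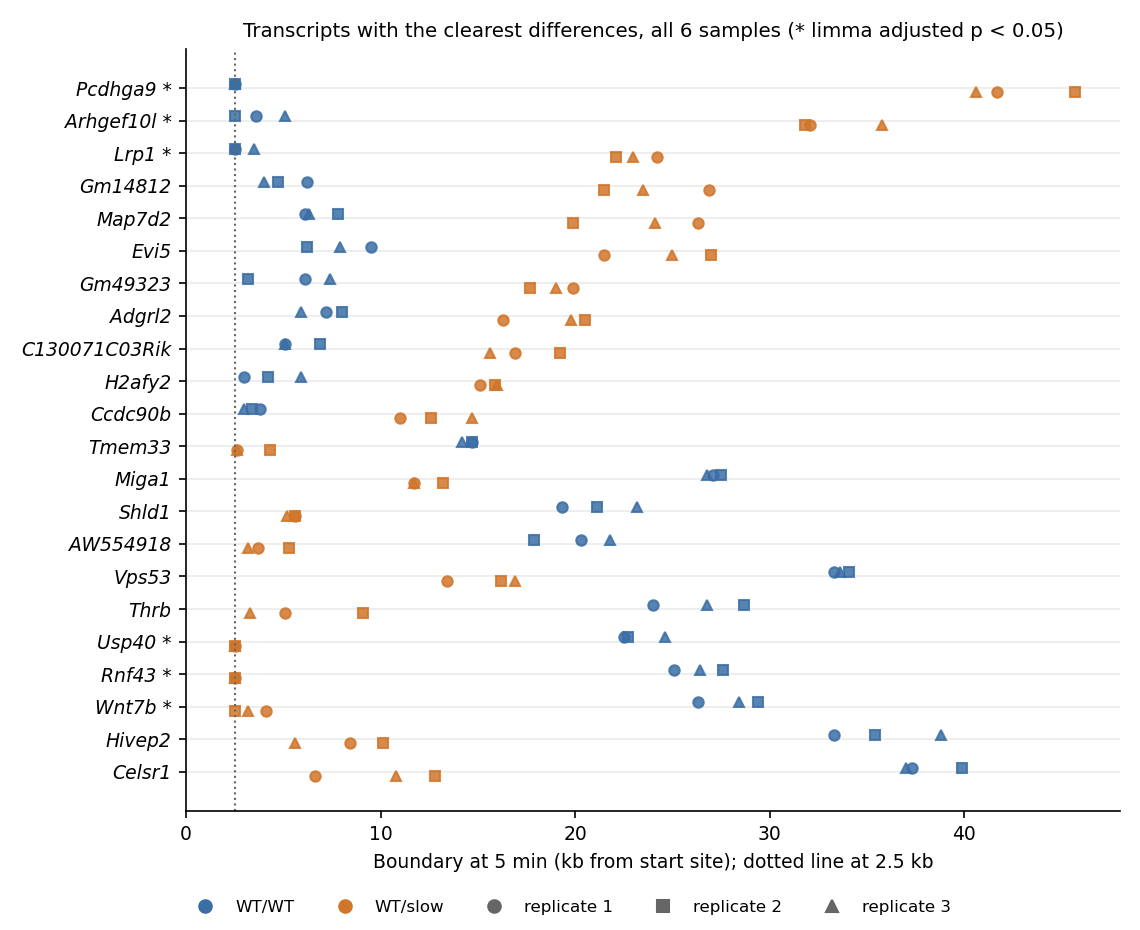
The boundary at 5 min in kb from the start site is plotted for each of the 6 samples of 22 transcripts, blue for WT/WT and orange for WT/slow, with symbols for the replicate numbers and a dotted line at 2.5 kb. Transcripts were chosen for groups that do not overlap, and asterisks mark the 6 genes called by limma without the block, in each of which at least 1 sample sits at 2.5 kb.

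The genes that the study used to follow elongation, and Polr2a itself, did not separate the genotypes. Ern1, a sensor of unfolded protein, had 13.5, 15.6 and 12.6 kb in WT/WT cells and 16.7, 14.8 and 11 kb in WT/slow cells (difference 0.267 kb, SE 1.96). Notch1, a receptor of cell fate decisions, had 17.8, 21.2 and 9.8 kb against 17.3, 21 and 9.6 kb, and each number was within 0.5 kb. The values of Notch1 thus followed the replicate number rather than the genotype. Itpr1, a calcium channel of the endoplasmic reticulum, had 10.1, 30.6 and 38.2 kb against 16.6, 30.9 and 12.4 kb (difference -6.33 kb, SE 8.86). Utrn, which encodes utrophin, had 6.3, 8.7 and 4.4 kb against 22.4, 2.8 and 27.1 kb (difference 11 kb, SE 6.66). Replicates 1 and 3 of Utrn were higher in WT/slow cells and replicate 2 was lower. Polr2a had 15.5, 18.5 and 10.3 kb against 12.4, 15.7 and 6.8 kb, lower within each number, with a difference of -3.13 kb (SE 3.25) that was smaller than the spread within each genotype. The adjusted p of these 5 genes was 0.978 to 0.999 (limma).

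Groups of genes were described with 1 transcript per gene, the longest, and limma called 0 in each list. Over all 8744 genes, 53.4% were lower in WT/slow cells, the median difference was -0.3 kb, and 542 (6.2%) lay below and 282 (3.23%) above without overlap. At an unadjusted p under 0.05 were 477 of 8539 genes tested (5.59%). Scaling samples to a common median moved the median over all genes to 0.261 kb and the share that was lower to 45.1%. After scaling, 347 of the 8744 genes lay below and 614 above without overlap.

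Of 42 genes of the pluripotency network and the LIF (leukaemia inhibitory factor) pathway, 21 were measured, with 11 lower and 10 higher, a median difference of -0.467 kb (1.22 kb after scaling) and 1 at an unadjusted p under 0.05. Gsk3b, a kinase that 2i medium inhibits, had 4.0, 13.8 and 12.8 kb in WT/WT cells and 24.7, 17.5 and 17.6 kb in WT/slow cells, each WT/slow value above each WT/WT value (adjusted p = 0.923, limma). Jak1, a kinase that carries the LIF signal, had 16.2, 17.4 and 30.4 kb against 13.9, 9.7 and 10.9 kb (adjusted p = 0.978, limma). Jak1 and Trim28 were the 2 genes of the list that lay below without overlap. Trim28, noted here after its values were seen, was measured in a processed transcript (ENSMUST00000209577). It was at 2.5 kb in each WT/WT and at 0.3 kb in each WT/slow sample. After scaling, 1 gene of the list lay below and 5 above without overlap.

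Elongation factors and their kinases had the highest median difference among the lists. Of 37 measured genes, 13 were lower and 24 higher in WT/slow cells, with a median of 1.17 kb (2.69 kb after scaling), 1 gene each below and above without overlap, and 1 at an unadjusted p under 0.05. The list's median boundary differed within the replicate numbers by -1.0, -1.5 and 3.1 kb, so the sign was not shared. After scaling, 1 gene of the list lay below and 5 above without overlap. Aff1, a scaffold of the super elongation complex, was measured in a retained-intron transcript (ENSMUST00000126335). It had 15.4, 15.9 and 19.4 kb in WT/WT cells and 2.5, 9.8 and 2.7 kb in WT/slow cells (adjusted p = 0.479, limma). Nelfa, a subunit of the pausing factor NELF, had 16.1, 14.8 and 13.2 kb against 16.5, 17.8 and 16.3 kb (adjusted p = 0.978, limma). The WT/slow front of Nelfa was ahead in every sample by a small margin, and that of Aff1 was behind.

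Of 80 chromatin regulators, 46 were lower and 33 higher, with a median of -0.667 kb that turned to 0.548 kb after scaling and 1 at an unadjusted p under 0.05. Chd8, a chromatin remodeller, had 36.1, 30 and 28.7 kb in WT/WT cells and 5.4, 26.8 and 6.0 kb in WT/slow cells, and Dnmt3a, a de novo DNA methyltransferase, had 17.6, 14.5 and 12.2 kb against 2.5, 11.6 and 9.7 kb. These were the 2 genes of the list below without overlap, and 1 gene lay above. After scaling, 1 chromatin regulator lay below and 6 above. Of 67 splicing and RNA processing factors, 34 were lower and 32 higher, with a median of 0 kb (0.511 kb after scaling) and 2 at an unadjusted p under 0.05. Ewsr1, an RNA-binding protein, had 9.2, 18.2 and 11.9 kb against 2.5, 6.2 and 5.3 kb. Esrp1, an epithelial splicing regulator, had 11.9, 7.8 and 8.5 kb against 2.5, 2.5 and 7.0 kb. In this list 4 genes (5.97%) lay below and 1 (1.49%) above without overlap. Ewsr1 and Esrp1 were among those below, with adjusted p of 0.829 and 0.923 (limma). After scaling, 2 genes of this list lay below and 5 above without overlap.

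Synaptic and axon guidance genes, which are among the longest in the genome, had the highest share of genes below without overlap. Of 83 measured, 10 (12%) lay below and 3 (3.61%) above, beside 6.2% and 3.23% over all genes. Over all transcripts compared the share below was 5.24% at 20 to 30 kb and 8.22% at 200 kb or more. The list was not compared with genes of like length. After scaling 6 lay below and 5 above, beside 347 and 614 of all 8744 genes. Their median difference was -0.8 kb (0.142 kb after scaling), with 47 lower, 30 higher and 7 at an unadjusted p under 0.05. Within the replicate numbers the list's median boundary differed by 1.8, -4.9 and -2.5 kb. Erc2, a protein of the presynaptic active zone, had 16.6, 13.7 and 18 kb in WT/WT cells and 5.0, 7.4 and 5.0 kb in WT/slow cells (adjusted p = 0.275, limma). Dlg4, a postsynaptic scaffold, had 7.9, 9.5 and 15.4 kb against 2.5 kb in each WT/slow sample (adjusted p = 0.665, limma). Both fronts were nearer to the start in every WT/slow sample. The 3 genes above were Epha3, Ank3 and Dscam, noted after their values were seen, and in Dscam, an adhesion molecule of neurons, the boundary was 7.8, 7.8 and 9.0 kb against 16.2, 13.5 and 27.8 kb.

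Of 93 DNA repair and replication genes, 54 were lower and 39 higher, with a median of -0.267 kb (0.712 kb after scaling) and 4 at an unadjusted p under 0.05. Only Mcm9, a helicase of homologous recombination, lay below without overlap, with 13.1, 6.5 and 7.7 kb in WT/WT cells and 2.5 kb in each WT/slow sample (adjusted p = 0.807, limma). In the list 3 genes (3.23%) lay above, among them Pole2, a subunit of a replicative polymerase, with 5.1, 3.9 and 4.7 kb against 12.4, 8.0 and 9.3 kb (adjusted p = 0.75, limma). After scaling, 2 genes of the list lay below and 10 above without overlap.

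**Figure D4:**
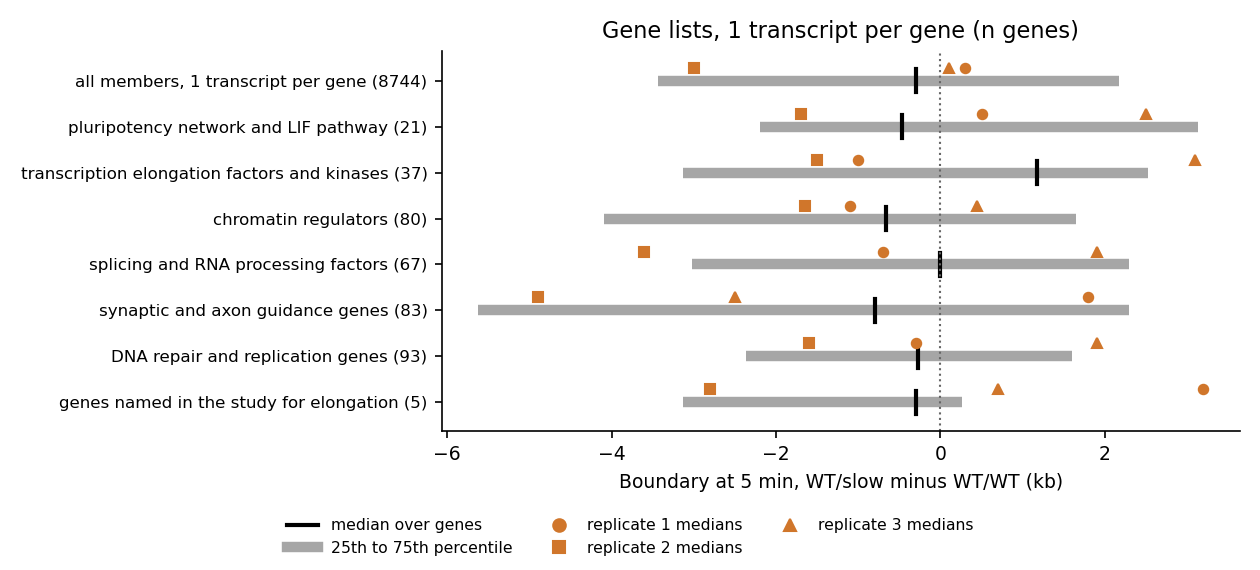
For each gene list, with the number of genes measured in parentheses, the difference in boundary between WT/slow and WT/WT cells is plotted in kb, with a black line at the median over genes, a grey bar from the 25th to the 75th percentile and orange symbols at the difference between list medians within each replicate number. The grey bars all span 0, and the replicate symbols fall on both sides of 0 in each list.

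The same transcripts were also read in samples that the choice of non-overlapping groups did not use. In homozygous slow/slow cells at 5 min, the median boundary over 25384 transcripts with calls in all 9 samples was 10.1, 9.2 and 7.6 kb, beside 7.8, 12.7 and 9.2 kb in WT/slow and 7.7, 15.9 and 9.2 kb in WT/WT cells. Slow/slow and WT/slow cells differed by -0.933 kb (exact permutation p = 0.7). In the 1647 transcripts with WT/slow below WT/WT, the median was 14.2, 15.8 and 14.7 kb in WT/WT samples, 4.7, 6.0 and 3.8 kb in WT/slow and 10.1, 7.4 and 6.9 kb in slow/slow cells. The choice of the sets puts WT/WT and WT/slow cells at opposite ends, so any other genotype near its usual level falls between them. In the 752 transcripts with WT/slow above WT/WT, the slow/slow samples were at 8.4, 6.7 and 6.3 kb, beside 2.5 to 3.6 kb in WT/WT cells and 11 to 11.8 kb in WT/slow cells.

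At 15 min, each set kept its direction more often than all transcripts had that direction. This held with boundaries at 2.5 kb at 5 min kept and with them set aside. Without them, 50.3% of the lower set kept its direction, against 32.5% of all, and 72.6% of the higher set, against 55.1% of all. The boundaries of both times were computed against an average of samples at 0 min, so the times may share that reference, and isoforms of a gene are counted separately. Of the 1551 transcripts that lay below at 5 min and had calls in all 6 samples at 15 min, 63.6% were lower in WT/slow cells at 15 min and 16.4% lay below without overlap, against 38.1% and 4.59% of all 24509 such transcripts. Of the 700 that lay above at 5 min, 75.9% were higher at 15 min and 24.0% lay above without overlap, against 50.4% and 7.37% of all. With all 6 boundaries at 5 min above 2.5 kb, 50.3% of the 664 lower transcripts were lower at 15 min and 43.5% higher, with a median difference of -0.05 kb, against 32.5% and 55.1% of all 10898 such transcripts. Of the 664, 10.4% lay below without overlap, against 3.78% of all. Of the 237 higher transcripts, 72.6% were higher at 15 min and 20.7% lay above without overlap, against 8.3% of all. A change of the genotype difference from 5 to 15 min passed limma's interaction test in 117 of 28830 transcripts (0.406%), and in 34 of them when replicate numbers were blocked. The 117 included 6 named here, whose values follow in the closing section. Boundaries at 2.5 kb made up 39.0 to 56.1% of the calls in single samples at 15 min, more than the 17.2 to 25.3% at 5 min. In the 26705 transcripts, the median of the called boundaries at 15 min was 3.3, 2.5 and 4.2 kb in WT/WT replicates 1 to 3. In WT/slow replicates 1 to 3 it was 3.4, 4.8 and 5.7 kb. Each of these medians was nearer to the start than that of the same genotype and number at 5 min. Over all transcripts, the boundaries at 15 min thus cannot be read as a wave that had moved on since 5 min. Whether a kept direction reflects a lasting difference in wave position was not tested.

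**Figure D5:**
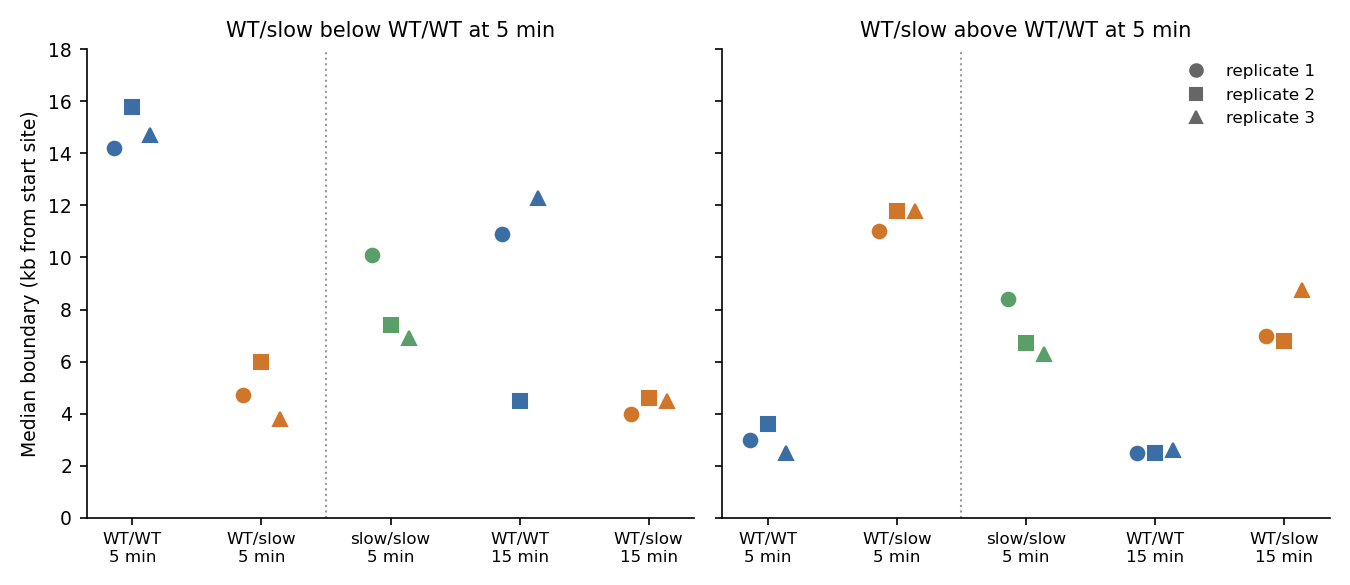
Median boundaries in kb from the start site are plotted per sample for the 1647 transcripts with WT/slow below WT/WT at 5 min (left) and the 752 with WT/slow above (right). Values left of the dotted line chose the sets, and slow/slow cells at 5 min lie between the genotypes that define each set. At 15 min WT/slow medians lie above WT/WT medians in the right panel, while in the left panel replicate 2 of WT/WT, at 4.5 kb, lies among the WT/slow values.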

How the data were processed

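Wave-front boundaries from 4sU-DRB-seq of WT/WT and WT/slow ESCs at 5 min were compared (6 of 45 samples, grouped by the genotype, time and replicate in the labels). The samples of both genotypes at 15 min and of slow/slow cells at 5 min served for reading only, and the others were not used here. Reads were aligned by the authors to mm10 (GRCm38) with Bowtie2 (version 2.2.9 by the submitters' processing notes), uniquely mapped reads off rRNA were kept, and the wave end was found with published software. The deposited boundaries are other than counts: they are distances in bases, 1 or none per Ensembl transcript, each sample set against an average of samples at 0 min, so depth is unknown.

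Members and gene lists were chosen with earlier results of these data known. Boundaries were divided into kb. Group medians and shares were compared with exact two-sided permutation tests over 3 against 3 samples, and 31436 transcripts with 6 boundaries that were not all identical with limma (3.58.1, R 4.3.3; lmFit, eBayes, Benjamini-Hochberg, threshold 0.05). A length minimum of 20 kb applied to counts, not to the adjustment. Same-numbered samples deviated together from their group means (r = 0.262, 0.324 and 0.118 over 26705 transcripts, the other pairs -0.261 to 0.00722). Permutation tests and the adjusted p of single genes did not pair samples unless the block is named. The numbers were used as pairs in sign-flip tests and in a limma fit with the number as a block, given where it changes a call. The labels give the numbers but do not say what they mark.

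Named genes were Ern1, Notch1, Itpr1, Utrn and Polr2a, then, by smallest limma p among groups that did not overlap, 8 lower and 8 higher with all boundaries above 2.5 kb and 3 lower and 3 higher with some at 2.5 kb, and 2 per gene list. Of the 26705 transcripts, 26605 were found in GENCODE M21 and 25023 had the same coordinates there. Limma was tested on simulated data. Alternatives were length, 1 transcript per gene or start, means, log2, a trended variance, scaled samples, boundaries in 2 of 3 replicates, slow/slow samples in the fit, the block and each sample left out. Scaling of counts without overlap, leaving out replicate 2 of both groups, leaving out single boundaries at 2.5 kb and the combinations with the block were chosen after seeing the data. Python 3.11.15, NumPy 2.4.6, pandas 2.3.3, Biopython 1.88 and Matplotlib 3.10.9 were used.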

Additional observations from a re-analysis of the deposited data

Results flagged for a closer look

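In 6 of the named genes the difference between WT/slow and WT/WT cells was not the same at 5 and at 15 min, by limma's interaction of genotype and time over 28830 transcripts with 12 boundaries, of which 117 (0.406%) passed. With the replicate number as a block, chosen after seeing the data, 34 passed, all among the 117. The genes had been named for their values at 5 min, so the interaction is not independent of that choice, and no cause was tested. Values are given for replicates 1 to 3.

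In Vps53 the genotypes overlapped at 15 min, with 31.6, 35.3 and 36.2 kb in WT/WT cells and 35.7, 34.1 and 33.9 kb in WT/slow cells (interaction 18.4 kb, adjusted p = 0.0141, limma). Tmem33 was at 2.5, 3.6 and 2.6 kb against 2.5 kb in each WT/slow sample (interaction 11 kb, adjusted p = 0.0167, limma), nearer to the start than at 5 min in WT/WT cells. H2afy2 and Lrp1 stood at 2.5 kb in all 6 samples at 15 min, with interactions of -11.3 kb (adjusted p = 0.0174, limma) and -20.3 kb (adjusted p = 0.00201, limma). With identical values at 15 min, these interactions are the differences at 5 min, which chose the genes, with the sign turned. The same nearly holds for Tmem33, whose values at 15 min ran from 2.5 to 3.6 kb and whose difference at 5 min was -11.4 kb. What 2.5 kb stands for is not known, so the interactions of H2afy2, Lrp1 and Tmem33 do not show a change with time.

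In Erc2 and Mcm9 the difference was larger at 15 min. Erc2 had 31.6, 35.5 and 30.5 kb in WT/WT cells and 3.0, 5.0 and 5.0 kb in WT/slow cells (interaction -17.9 kb, adjusted p = 0.0207, limma). Mcm9 had 30.3, 28.1 and 26.8 kb in WT/WT cells and stayed at 2.5 kb in each WT/slow sample (interaction -19.3 kb, adjusted p = 0.0176, limma). In slow/slow cells at 5 min Mcm9 was at 5.9, 2.5 and 2.5 kb and Erc2 at 12.8, 9.9 and 35.7 kb.

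With the block the adjusted p was 0.047 for Vps53, 0.05 for Tmem33, 0.0527 for H2afy2, 0.035 for Lrp1, 0.0647 for Erc2 and 0.0491 for Mcm9 (limma). Vps53, Lrp1 and Mcm9 passed the threshold, Tmem33 lay just above it, and H2afy2 and Erc2 did not pass.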

How the results depend on the processing

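The difference in the median ranged from -2.67 to 1.33 kb when single samples were left out and was 0 kb without replicate 2 of both groups. By length class, leaving out single samples gave -1.85 to 1.6 kb (20 to 30 kb), -2.38 to 1.97 kb (30 to 60 kb), -3.22 to 1.23 kb (60 to 100 kb), -3.23 to 0.717 kb (100 to 200 kb) and -2.22 to -0.217 kb (200 kb or more). The sign also turned at 20 to 30 kb with all 6 boundaries above 2.5 kb (0.133 kb) and, without replicate 2 of both groups, at 20 to 30 kb (0.35 kb) and 30 to 60 kb (0.6 kb). The share at 2.5 kb ranged from 0.942 to 4.22 points.

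Against 8 transcripts called, limma called 3 on the log2 scale (1 shared), 5 with a trended, robust variance (0 shared), 1 with 1 transcript per gene, and 0 (0 to 0 without single samples) with the replicate block, with the block and scaled samples, with the block and all 6 boundaries above 2.5 kb, with scaled samples alone, with boundaries above 2.5 kb alone, over transcripts of at least 20 kb alone and without replicate 2 of both groups. Limma called 10 (8 lower, 2 higher, 3 shared) with the slow/slow samples in the fit and 9 (8 shared) with boundaries in 2 of 3 replicates. In the interaction of genotype and time the block left 34 of 117 calls, and no other result had passed. Without overlap were 2399 of 26705 transcripts (8.98%). The counts were 976 of 12328 (7.92%) with all boundaries above 2.5 kb and 824 of 8744 (9.42%) with 1 transcript per gene. Of transcripts of at least 60 kb they were 1086 of 11801 (9.2%). Among 41 named transcripts, only the 8 called ones had a call to lose. They lost it in 71 alternatives, which is every alternative of theirs except the log2 scale for Pcdhga9. Of the 369 alternatives over all named transcripts, 7 turned the direction, all in Ern1 and Notch1. Most of the others were chosen for groups that do not overlap, which fixes their direction in most settings. Without single samples Ern1 ranged from -1.0 to 1.85 kb (with -0.383 and -0.05 kb among them) and Notch1 from -3.53 to 2.88 kb (with 0.467 and 2.17 kb), and Notch1 was 0.729 kb after scaling. Limits were the 3 replicates, the shared value 2.5 kb and the unknown depth.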

Other observations

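The share of transcripts with a boundary overlapped between the genotypes. Of the transcripts of at least 20 kb, 189 had a boundary in the 3 WT/WT samples and in 0 WT/slow samples, and 76 had the reverse. A further 3312 had a boundary in none of the 6 samples and 5014 in 1 to 5 of them. These transcripts are not among the 26705 compared, and whether their nascent RNA differed was not tested.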
